A study of Mus musculus with 5 samples.

Results

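Transcripts of 10 Notch pathway genes were followed in hair follicle stem cells from the back skin of mice aged 75 days. The genes were chosen by symbol and comprise the receptor genes Notch1, Notch2 and Notch3, the ligand genes Jag1, Jag2 and Dll1, the target genes Hes1, Hey1 and Heyl, and Rbpj, whose product carries the signal on DNA. All 10 were found, each once, among the 55357 genes of the deposited table, and 9 of them were among the 15665 genes with enough reads to test. The missing one was Heyl.

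PRC1 i2KO had 3 libraries from mice of genotype K15-CrePR1:Ring1a-/-, Ring1bflox/flox, and Control had 2 libraries from mice of genotype Ring1a-/-, Ring1bflox/flox. PRC1 is the Polycomb complex that places ubiquitin on histone H2A, and Ring1a and Ring1b (genes Ring1 and Rnf2) are its catalytic subunits. Both groups carried the Ring1a-/- genotype by their labels, and both received 1% RU-486 on the skin for 10 days from postnatal day 50, with collection 15 days after the last treatment. Only PRC1 i2KO carried K15-CrePR1, in which a keratin 15 promoter drives a Cre that RU-486 switches on, so the loss of Ring1b and the presence of active Cre cannot be told apart. The sort kept EpCAM-positive, Sca1-negative, α6-integrin-high, CD34-positive cells, and 50000 cells went into each RNA preparation. Libraries are named by the number in their title, so that Control has replicates 1 and 3. Nothing in the labels says that each library came from its own animal, and every p-value below reflects only how far these samples spread, which may be technical.

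Notch receptors and their ligands are membrane proteins of neighbouring cells. Ligand binding exposes the receptor to cleavage by ADAM proteases and then by γ-secretase, and the freed intracellular domain enters the nucleus. There it joins Rbpj and Mastermind proteins and switches Rbpj from a repressor to an activator of genes such as those of the Hes and Hey repressors. In mouse skin the pathway is known for promoting spinous differentiation above the basal layer of the epidermis and for keeping follicle cells in their lineage.

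All 3 receptor genes were higher in PRC1 i2KO, the largest rise being that of Notch3, which rose 13.5-fold. Among the targets Hes1 rose 2.99-fold. Of the ligand genes Jag1 fell 1.63-fold, while Jag2 and Dll1 did not pass the test, and Rbpj fell 2.56-fold. Of the 9 tested genes 4 rose (44.4%) and 2 fell (22.2%) by the quasi-likelihood test of edgeR (adjusted p under 0.05). Over all tested genes 18.8% rose and 15.1% fell, 33.9% together. The median log2 fold change was 0.37 over these 9 genes and -0.01 over all tested genes. Levels are given as CPM (counts scaled to a fixed total, with TMM factors) to compare libraries, and as the deposited TPM (a fixed total of transcripts, which corrects for length) to compare genes.

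Some facts of the whole libraries bear on every value below. Library totals ran from 9675996 to 21102727 estimated reads in PRC1 i2KO and were 8270419 and 32463173 in Control. The 3 deepest libraries are PRC1 i2KO replicates 2 and 3 and Control replicate 3, so a fit to them holds 1 control. For a call lost in that fit, depth and the smaller number of libraries cannot be told apart. Rnf2 averaged 48.3 CPM in PRC1 i2KO and 62.8 CPM in Control, 1.3-fold lower in PRC1 i2KO (edgeR adjusted p = 0.0363). Ring1 reads were present in all 5 libraries, at 19.6 to 28.6 CPM in PRC1 i2KO and 30.3 and 27.5 CPM in Control (adjusted p = 0.36). Reads from the rest of a transcript can remain after an exon is deleted, so these gene-level values do not check the genotype at either gene. The defining markers of the bulge, the stem cell niche, differed: 10 of 12 fell, and their summed level was 5129 to 7149 CPM in PRC1 i2KO, against 21776 and 22850 CPM in Control. Of 4 tested genes of the sort gate 1 rose, 1 fell and 2 were not called. The one that fell, Cd34, stood at 11, 12.3 and 37.2 CPM in PRC1 i2KO and at 1548 and 1697 CPM in Control. All 7 upper follicle markers, all 8 sebaceous gland markers, all 10 suprabasal epidermis markers and all 10 cycling genes rose. Of 5 tested fibroblast markers 1 rose and 4 fell, and the whole list summed to 34.6 to 36.2 CPM in PRC1 i2KO, against 86.2 and 97.8 CPM in Control. Of 6 tested melanocyte markers 3 rose (Dct, Kit and Sox10) and 1 fell. The one that fell, Mitf, averaged 40.4 CPM in PRC1 i2KO and 157 CPM in Control and made up most of a sum of 72.4 to 78.5 CPM in PRC1 i2KO, against 157 and 170 CPM in Control. Of 5 tested immune markers 2 rose, Cd74 and H2-Aa, which present antigen and made up most of a sum of 81.1 to 118 CPM in PRC1 i2KO, against 26.2 and 31.9 CPM in Control. Ptprc, the marker of all leukocytes, averaged 0.565 CPM in PRC1 i2KO and 0.559 CPM in Control and was not called (edgeR adjusted p = 0.974). In bulk libraries of this kind fewer cells of a type and less RNA per cell cannot be told apart, and the part of these shifts in the Notch values was not tested.

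The stretches of DNA before the gene starts of Notch3 and Rbpj are shown because these genes had the largest rise and the largest fall among the 9 tested. The sequences come from RefSeq on build GRCm38.p6, while the submitters' processing notes name mm39 for the reads. Each covers the 250 bases before an annotated start, written 5′ to 3′ on the gene's strand. Capitals mark TGGGAA, the core of the motif that Rbpj binds, on either strand (TTCCCA when read on the other).
Notch3 (chr17:32166891-32167140, minus strand): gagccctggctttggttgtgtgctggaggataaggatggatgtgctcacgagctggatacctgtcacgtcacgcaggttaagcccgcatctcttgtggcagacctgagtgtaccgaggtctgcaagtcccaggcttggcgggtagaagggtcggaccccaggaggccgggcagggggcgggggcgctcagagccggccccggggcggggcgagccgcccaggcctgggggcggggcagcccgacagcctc
Rbpj (chr5:53590096-53590345, plus strand): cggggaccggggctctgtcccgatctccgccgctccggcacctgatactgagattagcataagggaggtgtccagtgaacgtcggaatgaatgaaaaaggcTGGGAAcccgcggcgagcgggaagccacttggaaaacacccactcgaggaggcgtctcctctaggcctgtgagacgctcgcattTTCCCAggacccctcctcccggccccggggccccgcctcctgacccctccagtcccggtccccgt
The Rbpj window shown held 2 matches, which begin 149 and 65 bases before the start, and the Notch3 window held none. The window of a second annotated Rbpj start, not shown (chr5:53590236-53590485), overlaps the window shown. Its 1 match, which begins 205 bases before that start, is the same site as the match 65 bases before the first start. RefSeq windows were found for 7 of the 10 genes, and Rbpj was the only 1 of these with a match to TGGGAA. Of all 32851 promoter windows of this length 21.6% held the motif, and the longer form GTGGGAA, in 5.42% of them, was in none of the 7. Entries for Hes1, Hey1 and Heyl were not used here. A match describes letters in a window and does not show binding.

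Notch3 (ENSMUSG00000038146), a receptor known from spinous keratinocytes and from the muscle cells of vessel walls, was the receptor gene that differed most. Its level was 136, 135 and 92.2 CPM in PRC1 i2KO replicates 1, 2 and 3, and 8.98 and 8.9 CPM in Control replicates 1 and 3. Every PRC1 i2KO library lay far above both controls, and the lowest of the 3 was replicate 3. The log2 fold change was 3.76 (SE 0.21, edgeR adjusted p = 4.47e-06), with values of 3.67 to 3.93 when 1 library was left out. On log2(TPM + 1), a scale that understates changes of low genes, it was 3.18 after rescaling for the median gene (limma adjusted p = 0.000399). Groups that do not overlap were common: in 30.0% of all tested genes every PRC1 i2KO library lay above both controls, in 29.4% below, and in 59.5% either.

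Markers of other cells that carry Notch3 were read beside this rise. Of 9 pericyte and smooth muscle markers 6 were tested, of which 3 rose and 1 fell. Their summed level was 244 to 397 CPM in PRC1 i2KO, against 742 and 816 CPM in Control, and most of it was Cspg4, at 236, 247 and 392 CPM in PRC1 i2KO and 741 and 815 CPM in Control. Without Cspg4, a choice made after the values were seen, the sum was 5.58 to 10.6 CPM in PRC1 i2KO, against 0.622 and 1.23 CPM in Control. Rgs5, a pericyte marker, had 2.18, 3.71 and 0.579 CPM in PRC1 i2KO and 0 reads in both controls. In Control 5 of the 9 markers had 0 reads. Suprabasal markers summed to 2845 to 4033 CPM in PRC1 i2KO, against 1286 and 1293 CPM in Control. Their part in the rise of Notch3 was not tested.

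Notch1 (ENSMUSG00000026923), the receptor best known for its role in epidermal differentiation, rose less. Its levels were 565, 599 and 474 CPM in PRC1 i2KO replicates 1, 2 and 3, and 369 and 346 CPM in Control. The lowest PRC1 i2KO library still lay above the higher control. The difference came to 0.61 on the log2 scale (SE 0.12, edgeR adjusted p = 0.00398). That call held with any 1 library left out (adjusted p up to 0.0377) but not in the 3 deepest libraries (0.0929), on deposited TPM (log2 fold change 0.52, limma adjusted p = 0.163) or on rescaled TPM (0.67, adjusted p = 0.103).

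Notch2 (ENSMUSG00000027878), the third receptor gene, had 139, 145 and 148 CPM in PRC1 i2KO, and 117 and 107 CPM in Control. The groups did not overlap, and the rise was small, at 0.37 on the log2 scale (SE 0.10, edgeR adjusted p = 0.0179). It was no longer called with Control replicate 3 left out (adjusted p = 0.156), with PRC1 i2KO replicate 2 left out (0.0627), in the fit to the 3 deepest libraries (0.12) or on TPM (limma adjusted p = 0.431, and 0.174 after rescaling).

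Jag1 (ENSMUSG00000027276), the ligand gene that fell, encodes a ligand that is itself a known target of the WNT pathway in the follicle. It had 272, 272 and 226 CPM in PRC1 i2KO, and 472 and 368 CPM in Control. All 3 PRC1 i2KO libraries lay below both controls, which differed from each other by more than the PRC1 i2KO libraries did. Jag1 fell by 0.71 on the log2 scale (SE 0.13, edgeR adjusted p = 0.00278), and the fold change ran from -0.52 without Control replicate 1 to -0.88 without Control replicate 3. The call was lost in the 3 deepest libraries, which hold 1 control (log2 fold change -0.55).

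Jag2 (ENSMUSG00000002799), a ligand of basal keratinocytes, was not called. Its levels were 593, 621 and 775 CPM in PRC1 i2KO, and 599.8 and 654 CPM in Control, so that the groups overlapped, with PRC1 i2KO replicate 3 the highest of the 5. The difference was 0.08 on the log2 scale with a 95% interval from -0.18 to 0.34 (edgeR adjusted p = 0.683), and it was negative on TPM and without PRC1 i2KO replicate 3.

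Dll1 (ENSMUSG00000014773), a Delta ligand that marks clusters of human epidermal stem cells, had 50.1, 42.8 and 45.8 CPM in PRC1 i2KO, and 33.0 and 42.5 CPM in Control. The lowest PRC1 i2KO library was just above the higher control. A log2 fold change of 0.28 (95% interval -0.01 to 0.57) did not pass (edgeR adjusted p = 0.18).

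Hes1 (ENSMUSG00000022528), a repressor and the classical Notch target of many tissues, rose. It had 145, 146 and 116 CPM in PRC1 i2KO, and 59.3 and 33.3 CPM in Control. The 2 controls stood well apart, yet both lay below the lowest PRC1 i2KO library. The log2 fold change was 1.58 (SE 0.26, edgeR adjusted p = 0.00572), and it ranged from 1.19 without Control replicate 3 to 2.03 without Control replicate 1, with the call kept each time.

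The Hey repressor genes were near the lower limit of these libraries. Hey1 (ENSMUSG00000040289) had 2.38, 3.24 and 4.32 CPM in PRC1 i2KO, and 2.95 and 1.62 CPM in Control. These ranges overlapped, and the log2 fold change of 0.60 (95% interval -0.37 to 1.56) did not pass (edgeR adjusted p = 0.393). Heyl (ENSMUSG00000032744) had 0, 11 and 13 reads in PRC1 i2KO replicates 1, 2 and 3, and 2 and 4 reads in Control. Scaled to the library totals, the ratio of the summed reads was 3.3, with an exact 95% binomial interval from 1.31 to 9.86 that covers counting error only and ignores the spread between libraries. Heyl did not pass the filter on low counts, and the 5 alternative fits that kept it did not call it.

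Rbpj (ENSMUSG00000039191) fell in every PRC1 i2KO library. Its levels were 79.4, 85.5 and 86.2 CPM in PRC1 i2KO, and 227 and 202 CPM in Control. The libraries of each group lay close together and the groups far apart. Rbpj fell by 1.35 on the log2 scale (SE 0.10, edgeR adjusted p = 1.18e-05), and the fold change was -1.27 to -1.44 when 1 library was left out.

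**Figure D1:**
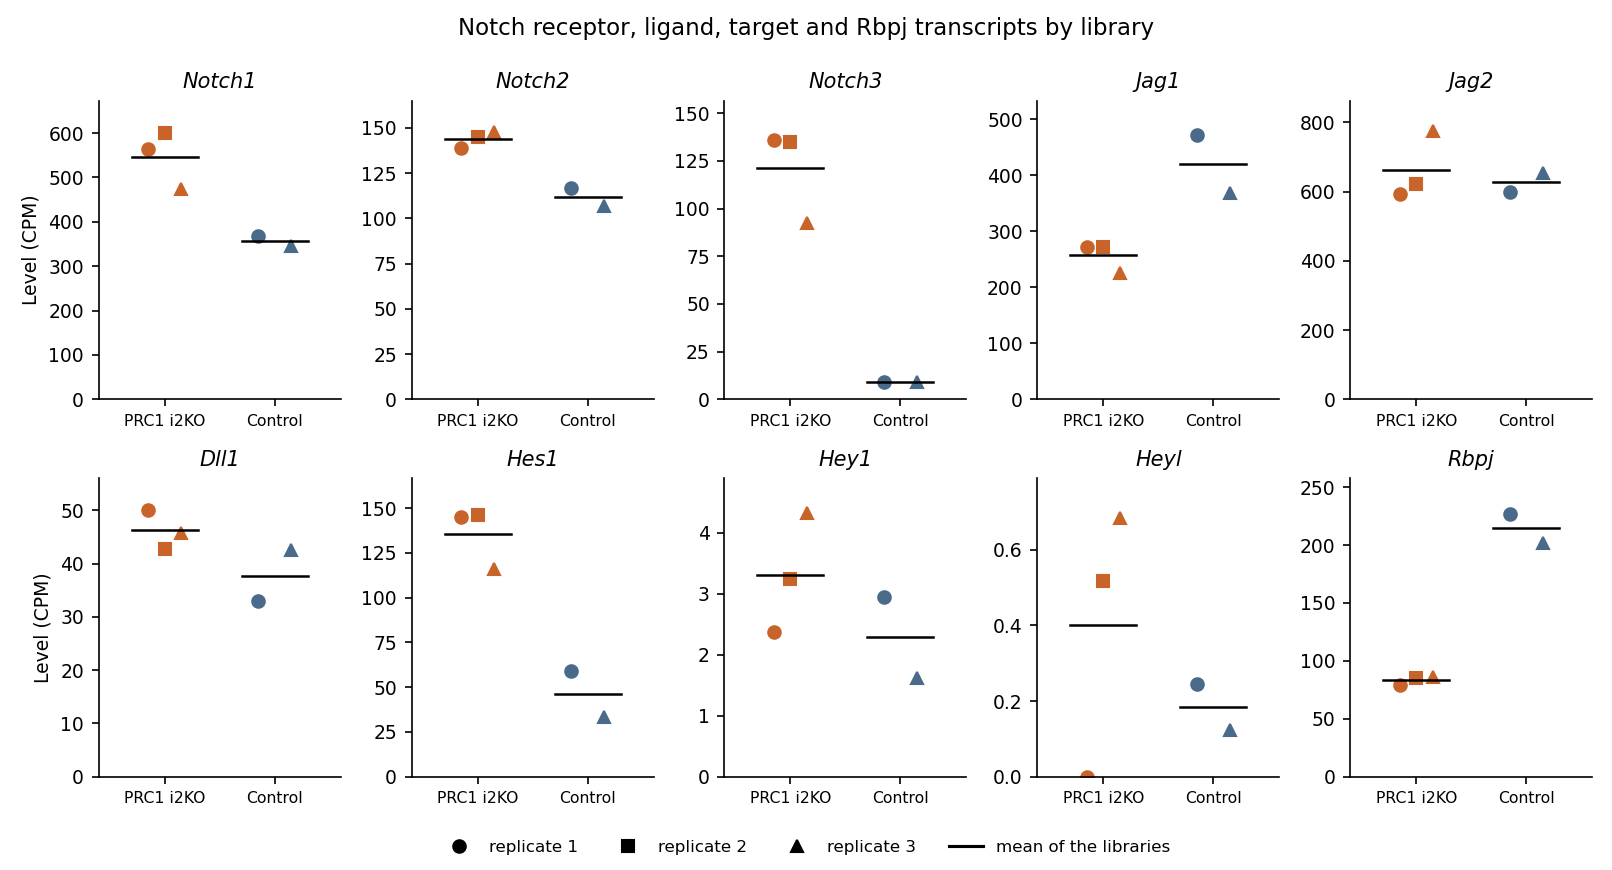
Level of each of the 10 genes in CPM on a linear axis from 0, with 1 point per library (symbol by replicate number) and a line at the mean, PRC1 i2KO (3 libraries) left of Control (2 libraries). Notch3 stood at 92.2 to 136 CPM in PRC1 i2KO, against 8.9 and 8.98 CPM in Control, and Rbpj at 79.4 to 86.2 CPM, against 202 and 227 CPM.

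The plot of fold changes sets these results against the choice of library and of scale. The calls of Notch3, Hes1 and Rbpj held in all 16 alternative fits, and that of Jag1 in all but the fit on the 3 deepest libraries. The share of all tested genes that these fits called was 26.3% on deposited TPM, 24.8% on rescaled TPM and 16.5% in the 3 deepest libraries, against 33.9%.

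**Figure D2:**
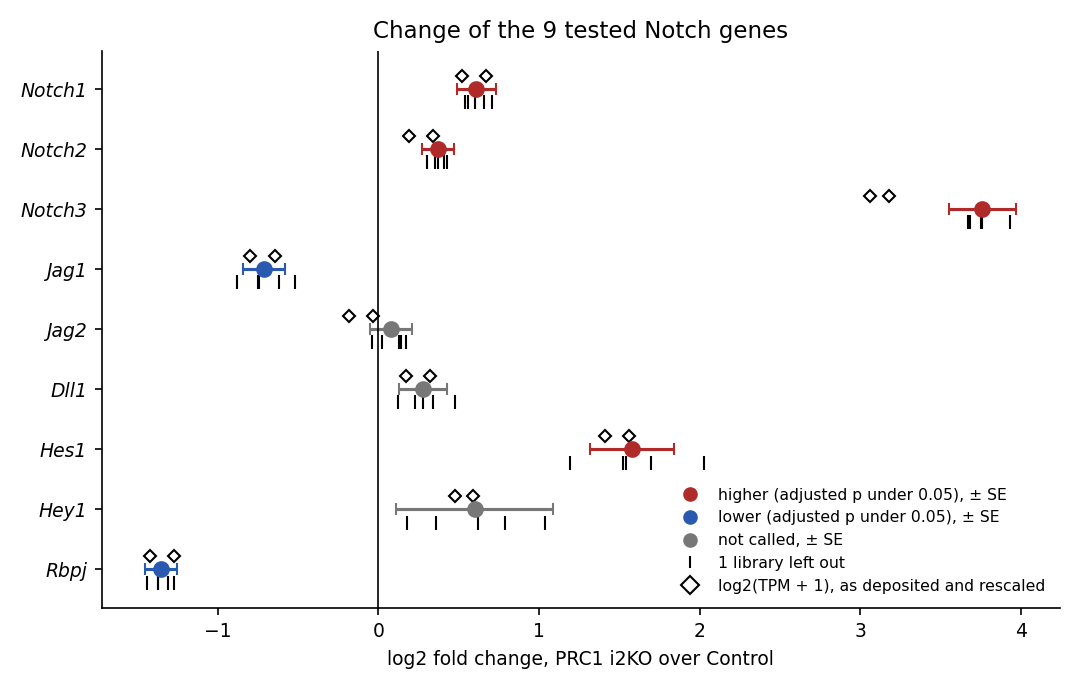
log2 fold change (PRC1 i2KO over Control) of the 9 tested genes, with the SE as a bar, ticks for the fits without 1 library, and diamonds for log2(TPM + 1) as deposited and rescaled. Notch3 (3.76) lies farthest to the right and Rbpj (-1.35) farthest to the left, while the marks of Jag2 fall on both sides of 0.

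Per length, Jag2 had the highest level of the 10 genes in both groups, at 362 ± 42.3 TPM in PRC1 i2KO (SD, n = 3) and 411 ± 54.0 TPM in Control (SD, n = 2). In PRC1 i2KO the order went on with Hes1 (183 ± 15.2 TPM), Notch1 (109 ± 35.6), Jag1 (107 ± 9.63), Rbpj (26.4 ± 3.54), Notch3 (24 ± 3.56), Dll1 (22.9 ± 1.61), Notch2 (21.4 ± 1.39), Hey1 (3.71 ± 0.792) and Heyl (0.143 ± 0.129; SD, n = 3 each). There the libraries of Notch1 and Jag1 overlapped, as did those of each neighbouring pair from Rbpj to Notch2. In Control the order went on with Jag1 (188 ± 39.2 TPM), Hes1 (73.7 ± 39.6), Notch1 (73.5 ± 6.4), Rbpj (72.1 ± 5.97), Dll1 (20.3 ± 3.27), Notch2 (18.6 ± 1.27), Hey1 (2.61 ± 1.91), Notch3 (1.96 ± 0.0141) and Heyl (0.075 ± 0.0354; SD, n = 2 each). The libraries of neighbours overlapped from Hes1 to Rbpj, between Dll1 and Notch2, and between Hey1 and Notch3. By mean TPM Notch3 stood among the 2 lowest genes in Control and level with Rbpj, Dll1 and Notch2 in PRC1 i2KO. In Control replicate 3 alone Hey1 was lower than Notch3, at 1.26 against 1.95 TPM.

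Among the receptors the share of Notch3 was 18.3%, 13.3% and 16.0% of their summed TPM in PRC1 i2KO replicates 1, 2 and 3, against 2.18% and 2.0% in Control. Notch1 held most of the sum in every library, with 65.7% to 75.9% in PRC1 i2KO and 76.2% and 79.8% in Control. The summed receptor level was 124 to 197 TPM in PRC1 i2KO, against 90.5 and 97.7 TPM in Control. That of the ligands was 455 to 527 TPM in PRC1 i2KO, against 606 and 632 TPM in Control, and Jag1 held 18.3% to 23.8% of it in PRC1 i2KO, against 35.6% and 25.4% in Control. On log2(TPM + 1) the median difference over all genes was -0.13, and the sums carry that shift while the shares do not.

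Ratios within a family do not depend on such scaling. The log2 ratio of Notch3 to Notch1 in TPM averaged -2.15 ± 0.33 in PRC1 i2KO (SD, n = 3) and -5.23 ± 0.14 in Control (SD, n = 2; exact two-sided permutation p = 0.2). Jag2 to Jag1 averaged 1.76 ± 0.28 in PRC1 i2KO and 1.14 ± 0.49 in Control, and Dll1 to Jag1 averaged -2.22 ± 0.22 in PRC1 i2KO and -3.21 ± 0.54 in Control. Hey1 to Hes1 averaged -5.64 ± 0.18 in PRC1 i2KO and -4.93 ± 0.35 in Control, and in each of these 4 ratios the groups did not overlap. Notch2 to Notch1 averaged -2.30 ± 0.49 in PRC1 i2KO and -1.98 ± 0.22 in Control, with overlap (exact permutation p = 0.4). With 3 libraries against 2 the smallest p possible is 0.2, or 0.25 after adjustment over the 5 ratios that could be formed, so none could pass. Jag2 to Jag1 differed by 0.62 between the groups, but by 0.27 when Control replicate 1 was left out and by 0.97 when Control replicate 3 was. Dll1 to Jag1 differed by 0.99, but by 0.61 when Control replicate 1 was left out. Heyl to Hes1 could not be formed because 1 library listed Heyl at 0.

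**Figure D3:**
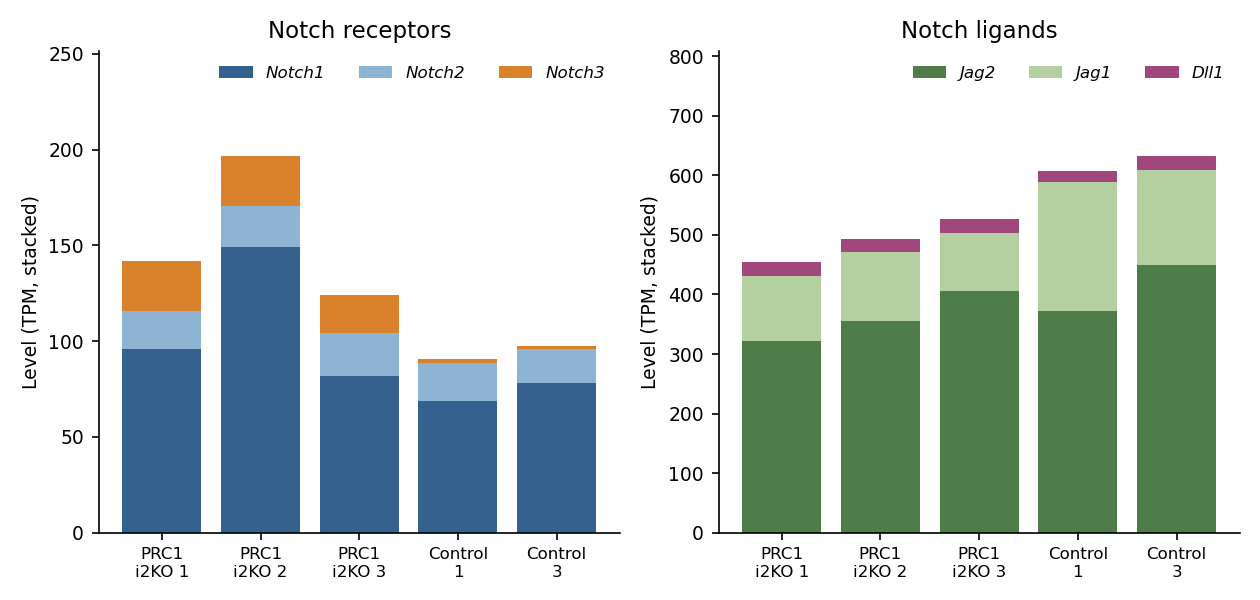
Stacked TPM of the 3 receptor genes and the 3 ligand genes in each library, PRC1 i2KO left of Control. The Notch3 segment makes up 13.3% to 18.3% of the receptor bar in PRC1 i2KO, against 2.0% and 2.18% in Control, and the Jag1 segment is the smaller in PRC1 i2KO.

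Beyond the 10 genes, 79 further genes of the pathway were sorted into 7 lists by role. Of these 78 were in the table and 68 were tested, of which 13 rose (19.1%) and 14 fell (20.6%), near the 18.8% and 15.1% of all tested genes. Their median log2 fold change was -0.10, against -0.01 over all tested genes. Of the 27 calls 18 held with any 1 library left out. The lists were drawn up by hand, and Kyat1, a kynurenine aminotransferase gene that rose, was placed among the co-repressors by mistake and is kept in the counts.

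**Figure D4:**
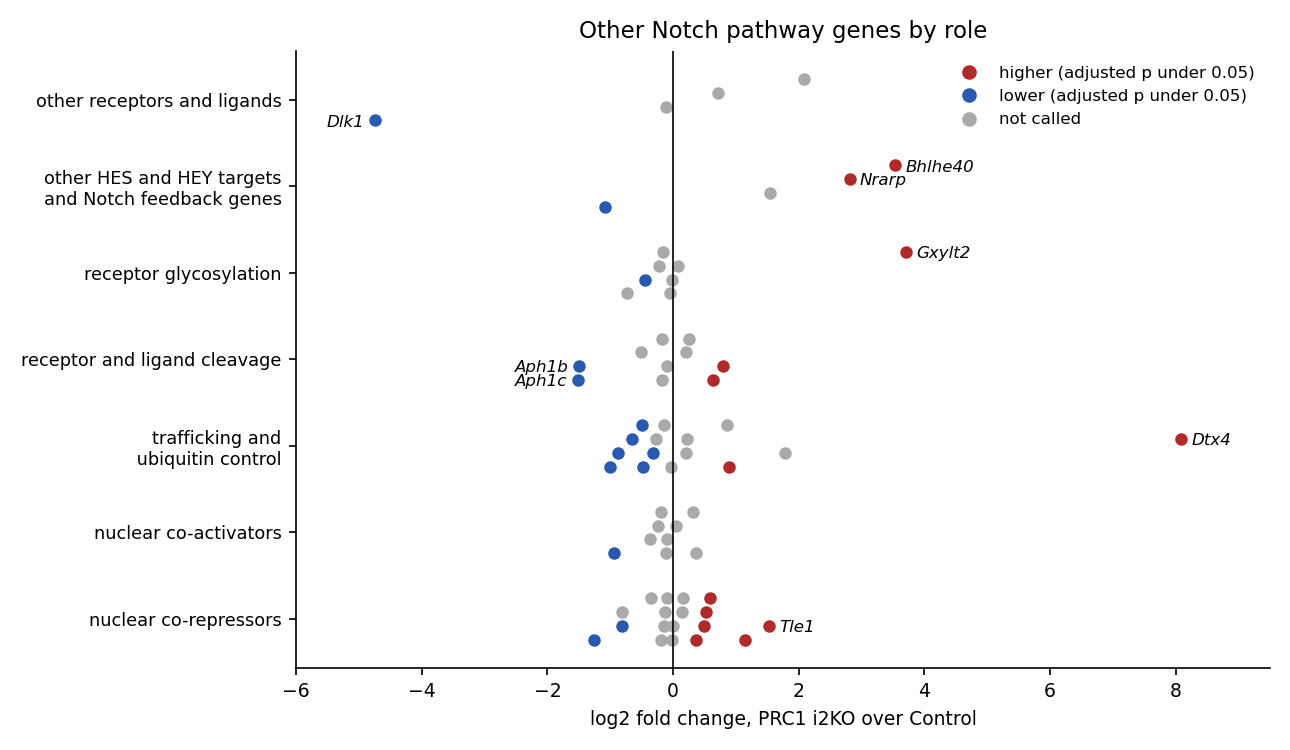
log2 fold change (PRC1 i2KO over Control) of the 68 other tested pathway genes, 1 point per gene, by role. Dtx4 (8.09), Gxylt2 (3.71), Bhlhe40 (3.53) and Nrarp (2.81) lie farthest to the right and Dlk1 (-4.75) farthest to the left, while most points lie near 0.

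Of 10 further HES and HEY targets and feedback genes 4 were tested, of which 2 rose and 1 fell. Nrarp, a Notch target whose product feeds back on the pathway as an inhibitor, rose 7.03-fold. It had 118, 103 and 118 CPM in PRC1 i2KO, and 18.7 and 14.1 CPM in Control (log2 fold change 2.81, SE 0.15, edgeR adjusted p = 1.89e-06). Bhlhe40, a repressor that many signals induce, had 624, 599.6 and 253 CPM in PRC1 i2KO, and 58.3 and 28.2 CPM in Control. Its call (log2 fold change 3.53, edgeR adjusted p = 0.0259) was lost without Control replicate 1 (4.12, adjusted p = 0.0772) or Control replicate 3 (3.07, adjusted p = 0.109). Hes6, which can counter Hes1, fell 2.12-fold (edgeR adjusted p = 0.0224), a call that leaving out Control replicate 3 ended (0.191), as did leaving out replicate 1 (0.0658) or 2 (0.0791) of PRC1 i2KO. Hes2 and Hes3 had 0 reads in all 5 libraries, and Hes5, Hey2 and Dtx1 had too few to test.

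Of 8 other receptor and ligand genes 4 were tested and 1 fell. Dlk1, a Delta-like protein that lacks the domain through which ligands activate Notch, had 0, 0.141 and 0.526 CPM in PRC1 i2KO, and 4.92 and 8.74 CPM in Control. The log2 fold change was -4.75 (SE 0.74, edgeR adjusted p = 0.00109), and -6.10 without PRC1 i2KO replicate 3. Notch4, the receptor of endothelium, which was named after its values were seen, stood at 1.66 CPM or less in every library (edgeR adjusted p = 0.591). Endothelial markers summed to 1.66 to 6.21 CPM in PRC1 i2KO, against 1.31 and 3.2 CPM in Control.

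Of 8 tested genes of receptor glycosylation 1 rose and 1 fell. Gxylt2, which encodes an enzyme that adds xylose to the glucose on Notch, had 22.1, 20.3 and 28.1 CPM in PRC1 i2KO, and 3.08 and 1.12 CPM in Control. It rose 13.1-fold (log2 fold change 3.71, SE 0.41, edgeR adjusted p = 0.000198), with 2.93 without Control replicate 3 and 4.38 without Control replicate 1. Pofut1, the fucosyltransferase that Notch needs for ligand binding, fell 1.36-fold (edgeR adjusted p = 0.0127, lost without Control replicate 1, 0.0797, or PRC1 i2KO replicate 1, 0.0527). Lfng, a Fringe gene whose product tunes the choice of ligand, was named after its values were seen. It stood at 33.7, 35.2 and 58.4 CPM in PRC1 i2KO, and at 70.9 and 71.0 CPM in Control, and was just outside the threshold (edgeR adjusted p = 0.0526).

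Of 10 genes of receptor and ligand cleavage 2 rose and 2 fell. Adam10, the protease of the first cut after ligand binding, had 82.6, 79.2 and 68.0 CPM in PRC1 i2KO, and 42.2 and 45.4 CPM in Control (log2 fold change 0.80, SE 0.12, edgeR adjusted p = 0.000928). Aph1b and Aph1c, a close pair of γ-secretase subunit genes, fell 2.83-fold and 2.87-fold (edgeR adjusted p = 4.94e-05 and 0.00341). As near-identical paralogs with fractional estimated counts, they may share reads, and the value of each one alone is uncertain. Their relative Aph1a, also named after its values were seen, had 117, 102 and 112 CPM in PRC1 i2KO, and 94.2 and 91.1 CPM in Control, and did not pass (edgeR adjusted p = 0.0945).

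Of 15 genes of trafficking and ubiquitin control 2 rose and 6 fell. Dtx4, a Deltex ubiquitin ligase gene, was nearly absent from Control. It had 54.7, 53.6 and 46.3 CPM in PRC1 i2KO, and 0.615 and 0.0622 CPM in Control, where these are 5 and 2 reads. Dtx4 rose by 8.09 in the fit on the log2 scale (SE 0.46, edgeR adjusted p = 8.96e-06). That size rests on those few reads, as it was 6.37 with Control replicate 3 left out and 9.56 with Control replicate 1 left out. Numb, which draws Notch into the cell and limits the signal, had 63.2, 70.1 and 76.2 CPM in PRC1 i2KO, and 129 and 151 CPM in Control (log2 fold change -1.0, SE 0.12, edgeR adjusted p = 0.000173). Its relative Numbl fell 1.82-fold (edgeR adjusted p = 0.00411), and Dtx3l rose 1.85-fold (0.0035). The other members that fell, named after their values were seen, were Itch, Dtx3, Aak1 and Mib2, each by between 1.25-fold and 1.57-fold. Dtx3 was no longer called with Control replicate 1 left out (log2 fold change -0.56). The call of Mib2 was lost whichever control was left out (log2 fold change -0.29 without replicate 1 and -0.36 without replicate 3). It was also lost without PRC1 i2KO replicate 1 (edgeR adjusted p = 0.101) or replicate 2 (0.0857).

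Of 9 nuclear co-activator genes 1 was called, which was lower. Maml2, a Mastermind gene, had 24.5, 27.5 and 37.9 CPM in PRC1 i2KO, and 58.3 and 56.8 CPM in Control (log2 fold change -0.94, SE 0.18, edgeR adjusted p = 0.00313). Of 18 co-repressor genes 6 rose and 2 fell, and the Groucho-type co-repressor genes went both ways. Tle1 had 127, 128 and 106 CPM in PRC1 i2KO, and 48.5 and 35.6 CPM in Control, a rise of 2.89-fold (edgeR adjusted p = 8.13e-05). Tle3 rose 2.21-fold (edgeR adjusted p = 5.61e-05), Tle2 fell 2.39-fold (2.16e-05) and Tle4 fell 1.75-fold (0.00228). These 4 were named because they were called, and in all 4 the groups did not overlap, as in 59.5% of all tested genes. Their directions held with any 1 library left out. Their relative Tle5, named after its values were seen, had groups that overlapped and was not called (log2 fold change -0.14, edgeR adjusted p = 0.4).

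**Figure D5:**
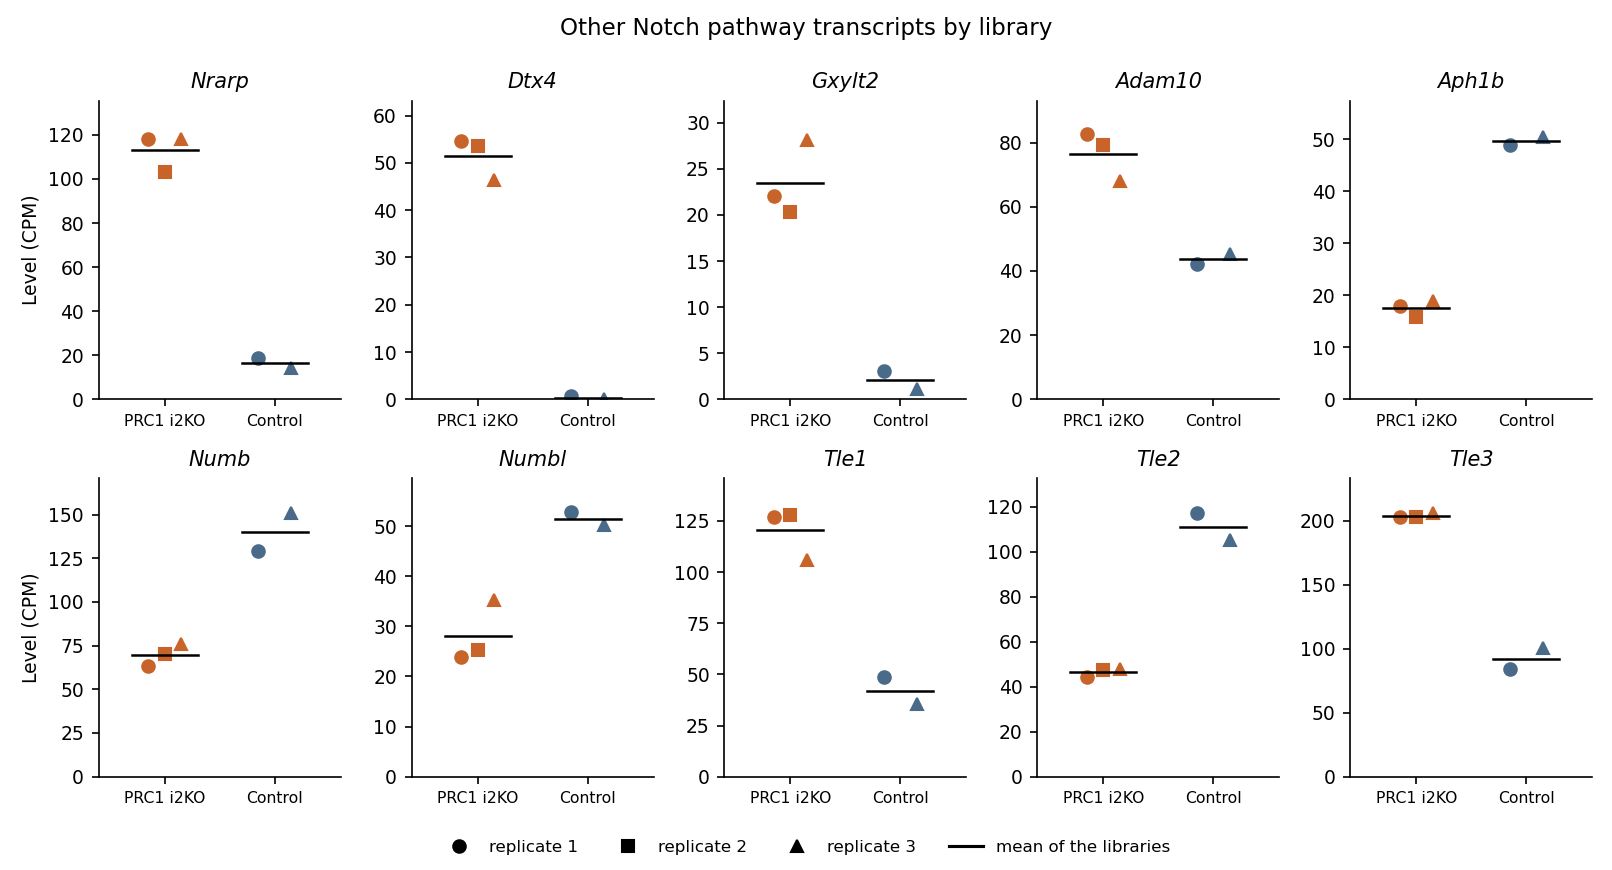
Level in CPM, on linear axes from 0, of 10 other pathway genes taken from those called, 1 point per library (symbol by replicate number) with a line at the mean, PRC1 i2KO left of Control. Nrarp, Dtx4, Gxylt2, Adam10, Tle1 and Tle3 lie higher in PRC1 i2KO, and Aph1b, Numb, Numbl and Tle2 lie lower.

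Of 12 epidermal genes listed by hand as tied to Notch 5 rose and 2 fell, beside 18.8% and 15.1% of all tested genes. The list includes a gene that opposes Notch, Trp63, and its counts do not measure Notch activity. Dsg1a, a desmosomal cadherin, rose 3.96-fold, Ivl, a cornified envelope protein, 13.9-fold and Krt10, a keratin of spinous cells, 3.59-fold (edgeR adjusted p = 2.43e-06, 1.05e-05 and 0.0014). Trp63, the p63 gene of basal keratinocytes that opposes Notch in mouse epidermis, had 744, 786 and 802 CPM in PRC1 i2KO, and 1184 and 1197 CPM in Control (log2 fold change -0.62, edgeR adjusted p = 0.00121). These 3 that rose are also suprabasal markers and are no separate evidence beside that list. Cdkn1a, a cell cycle inhibitor gene that Notch1 induces in mouse keratinocytes, was named after its values were seen. It had 177, 173 and 150 CPM in PRC1 i2KO, and 266 and 138 CPM in Control, and was not called (edgeR adjusted p = 0.509).

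For each called gene the closest profile over the 5 libraries was sought among 13282 other tested genes, by the root mean square distance of log2 CPM after centring each gene on its mean. The closest to Notch3 was Nid1, which encodes nidogen of the basement membrane (distance 0.0609), followed by Paqr5 (0.0812) and Me1 (0.0997). For Rbpj it was Dsg3, a desmosomal cadherin (0.0454), then Syt3 (0.0462) and Tle2 (0.048). Hes1 lay closest to Tk1, thymidine kinase (0.0686), Jag1 to Slc39a10, a zinc transporter (0.0332), Notch1 to Cpd (0.0335) and Notch2 to Dnaaf5 (0.0126). With 33.9% of genes called, close neighbours are common, and these distances describe 5 libraries only.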

How the data were processed

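RNA was measured in 5 libraries of sorted mouse hair follicle stem cells, 3 PRC1 i2KO and 2 Control, grouped by their titles. Per the file headers, the authors deposited for each library a column of counts per gene, and 9.06% of genes have a fractional value, so these are expected counts. The authors also deposited TPM, which hold no depth. Build mm39, RSEM 1.3.3, STAR 2.7.9a and DESeq2 1.38.2 are listed without roles in the submitters' processing notes; strandedness is not given in the sources used here. Expected counts were rounded and tested in edgeR 4.0.16 (R 4.3.3): filterByExpr, TMM factors (0.983 to 1.02), robust quasi-likelihood F test on genotype alone, Benjamini-Hochberg over 15665 genes, called at an adjusted p under 0.05. The SE is the log2 fold change over the square root of F, and 95% intervals assume a normal error. TPM was tested with limma 3.58.1 on log2(TPM + 1) with trend. DESeq2 1.42.0, other scalings, filters and left-out libraries were alternatives. The fit was also run on simulated data with changes planted in far fewer genes than were called here, and no outcome of that run is used. Libraries of 1 group differed by more than counting noise (chi-square over its degrees of freedom 9.8 to 39) and none were merged. Named genes were all 10, up to 4 called genes per pathway list by adjusted p, the targeted, sort gate and marker genes, the nearest profiles, and others where marked; 1 gene is not reported here. The genes, lists and tests were chosen with earlier results of these data known. Depth limits Heyl and Hey1 most.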

Additional observations from a re-analysis of the deposited data

How the results depend on the processing

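Over 16 alternative fits the 9 tested genes gave 125 values of the log2 fold change with the same direction and side of the threshold, 14 with a lost call and 5 with another sign. The 5 were of Jag2, which was not called, on deposited TPM (-0.18 with either pseudocount and without a filter), on rescaled TPM (-0.03, chosen after seeing the data) and without PRC1 i2KO replicate 3 (-0.04, in a range from -0.04 to 0.17 with 1 library left out). The 4 genes that rose became 2 on each TPM scale, rescaled included, and in the 3 deepest libraries, where the 2 that fell became 1. Leaving out 1 library gave 3 to 4 higher and 2 to 2 lower. Of the other pathway genes 8 rose on unfiltered TPM and 8 rose and 5 fell in the 3 deepest libraries, against 13 and 14. Over all genes 5310 were called, 2939 higher and 2371 lower. Deposited TPM gave 1886 higher with a pseudocount of 1, 1909 with 0.1 and 1393 (of 2996) unfiltered, and the 3 deepest libraries gave 1736 higher and 1009 lower (2745). With 1 library left out, 3322 to 5856 genes were called, 1359 to 2757 of them lower, the fewest without Control replicate 3. The share of calls that were higher was 45.7% on deposited TPM and 59.3% on rescaled TPM, against 55.3%. The cause was not tested. Replicate numbers 1 and 3 occur in both groups, but nothing in the labels says that they pair the samples. Deviations of same-numbered libraries from their group means correlated at 0.0737 and 0.115 across genes. Those of PRC1 i2KO replicate 2 correlated at 0.0432 with Control replicate 1 and at -0.0432 with Control replicate 3. With 2 controls their deviations are mirror images, so these values are tied and cannot decide whether the samples are paired. With the number as a replicate block 3 of these genes rose and 2 fell (Notch2 adjusted p = 0.0524), 13 and 15 of the other pathway genes rose and fell, and 4421 genes were called, 2521 higher and 1900 lower. The differences of the log2 ratios kept their direction in every alternative run, but with 1 library left out they ran from -0.55 to -0.07 for Notch2 to Notch1 (-0.32 with all, -0.07 without PRC1 i2KO replicate 2, -0.16 without Control replicate 1, -0.48 without Control replicate 3, -0.55 without PRC1 i2KO replicate 3), 0.27 to 0.97 for Jag2 to Jag1, 0.61 to 1.37 for Dll1 to Jag1, -0.96 to -0.46 for Hey1 to Hes1 (-0.71 with all, -0.46 without Control replicate 1) and 2.95 to 3.26 for Notch3 to Notch1.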

Other observations

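The deposited counts and TPM of a gene together imply the mean length of the transcripts that its reads were assigned to, relative to the median gene of the library. For Notch1 this relative length, in log2 units around its mean over the libraries, was 0.13, -0.41 and 0.17 in PRC1 i2KO replicates 1, 2 and 3, and 0.18 and -0.08 in Control. The shortest was thus PRC1 i2KO replicate 2, where the TPM of Notch1 was highest (149.13 TPM). A range at least as wide as that of Notch1 (0.59) was found in 15.9% of 11396 genes with at least 20 reads in every library. For Hey1, with 23 to 82 reads a library, the range was 1.1, reached by 3.32% of genes. For Notch2 it was 0.02, and for Notch3, Jag1, Dll1, Jag2, Rbpj and Hes1 it lay between 0.10 and 0.33. Which isoforms the reads came from cannot be read from gene-level values.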
